A study of Mus musculus with 28 samples.

Results

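The genes described here are 41 genes of S phase and mitosis, out of 23712 gene rows measured. They were taken from a list of names that uses no measured value, but the list was proposed with earlier results of these data known. Of the 41 genes, 25 act mainly in mitosis and 16 in DNA replication. All 41 matched a row by symbol, 32 of them through 1 transcript, and all 41 passed the filter on low counts. Of the 25, Ccna2, Mki67 and Melk also act before mitosis, and of the 16, Gmnn and Ccne1 have roles that reach beyond replication itself.

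RNA was sequenced from 28 mouse libraries of strain C57BL/6 in 9 groups. Untreated embryonic fibroblasts (MEF, n = 2) came from embryos 13.5 days after conception, and hepatocytes (Hep, n = 2) from livers of adult mice aged 10 weeks. Fibroblasts infected with retroviruses for Hnf4alpha and for 1 Foxa factor were sampled at 48 h (48h_Foxa1, 48h_Foxa2 and 48h_Foxa3, n = 2 each) and as maintained hepatocyte-like iHep cells (iHep_Foxa1, n = 6; iHep_Foxa2, n = 4; iHep_Foxa3, n = 6). A last group received Hnf4alpha with a Foxa3 del2 mutant (48h_Foxa3del2, n = 2); its titles say 48 h while its stage label says iHep, and it was treated here as a 48 h group. All 7 infected groups share the Hnf4alpha virus, and cells given virus without a factor were not analysed here, so infection and factor cannot be told apart. The labels do not say which replicates were separate cultures, infections or embryos, nor whether an iHep line was 1 clone, so p-values measure the spread between these libraries only.

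Assigned reads ranged from 14592820 to 51743266 per library, and each introduced Foxa gene had a mean above 45 CPM in the groups labelled with it and below 0.6 CPM in MEF and in the other infected groups. CPM is the depth-scaled read count of a gene, with library sizes adjusted by TMM. The libraries fell into 2 sets by the non-coding RNA Rn7sk: 14 libraries held more than 10 CPM and 14 held less. Above that value lay the 6 full-length 48 h libraries, 3 of iHep_Foxa1 (replicates 4 to 6) and 5 of iHep_Foxa3 (all but replicate 1); they are called the high set, and the others, with every library of MEF, Hep, iHep_Foxa2 and 48h_Foxa3del2, the low set. Summed over 10 markers, hepatocyte transcripts stood at 222100 to 241300 CPM in Hep, 2372 to 32350 in the iHep groups, 699 to 785 in 48h_Foxa3del2 and 14.5 to 25.4 in MEF and the full-length 48 h groups. Summed over 10 markers, fibroblast transcripts stood at 48640 to 49740 CPM in MEF, 24600 to 27200 in the full-length 48 h groups, 8538 to 10240 in 48h_Foxa3del2 and 78.6 to 1114 in the iHep groups. Both sums of the mutant group lay between those of the full-length 48 h and iHep groups. Its hepatocyte sum was largely Apoa1, at a mean of 484 CPM, while Alb was at 0.0455 CPM against 8.16 in MEF. At most 4 of the 10 hepatocyte markers exceeded 1 CPM there, as in MEF and the full-length 48 h groups. Summed over 15 markers, leukocyte transcripts stood at 32.3 and 361 CPM in MEF replicates 1 and 2, 362 to 456 in Hep, 8.34 to 17.1 in the full-length 48 h groups, 66.1 to 74.3 in 48h_Foxa3del2 and 8.82 to 147 in iHep libraries. The pan-leukocyte gene Ptprc was at 0 in all iHep_Foxa1 libraries and at 0.0345 CPM or less in the other iHep groups.

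Before S phase, Cdc6 and Cdt1 load the helicase made of Mcm2 to Mcm7 onto replication origins, and geminin (Gmnn) binds Cdt1 to prevent a repeat of loading. Cyclin E proteins (Ccne1, Ccne2) with their kinase partner start S phase, E2f1 drives transcription of many of these genes, Pcna is the sliding clamp of DNA polymerases, and ribonucleotide reductase (Rrm1, Rrm2) and thymidylate synthase (Tyms) make deoxynucleotides. Mitosis is entered through cyclin B (Ccnb1, Ccnb2) with Cdk1, and carried out by kinases, kinesins and kinetochore proteins. Transcription of replication genes is known to be controlled largely through E2F sites, and that of mitotic genes through the cell cycle genes homology region (CHR), often placed a short way from CCAAT boxes bound by NF-Y. Most hepatocytes of the adult liver are out of the cell cycle.

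The promoters of the members carried these motifs at different rates. RefSeq promoter windows (GRCm38.p6, 250 bases before to 50 bases after the annotated start) were found for 34 of the 41 members and for 27025 genes in all. Both strands were searched for CHR (TTTGAA or TTCGAA), for E2F (TTCCCGC or TTGGCGC or TTCGCGC or TTGCCGC) and for CCAAT; matches of the E2F set can overlap each other. A CHR match lay in 16 of 21 mitosis windows (76.2%) and in 2 of 13 replication windows (15.4%), against 19.4% of all windows. An E2F match lay in 8 of 13 replication windows (61.5%) and in 4 of 21 mitosis windows (19.0%), against 9.69% of all windows. CCAAT was present in 18 of 21 (85.7%) and 8 of 13 (61.5%), against 37.9% of all windows. The median GC content was 58.7% in mitosis windows, 57.7% in replication windows and 52.7% in all, and its part in these shares was not tested. A match is a run of letters, not a measured binding site.

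Bub1, Aurka, Plk1, Kif23, Cenpa, Cenpf and Ttk held their only CHR match after the annotated start, so the promoters shown here do not stand for the whole mitosis list. The 170 bases before the annotated start are shown for 5 mitosis members whose windows hold CHR matches beside CCAAT, chosen after the matches were seen. They are the promoters of Cdc20 at chr4:118437344-118437513 on the minus strand, Kif11 at chr19:37376212-37376381 on the plus strand, Cdk1 at chr10:69352913-69353082 on the minus strand, Top2a at chr11:99024190-99024359 on the minus strand and Mki67 at chr7:135716380-135716549 on the minus strand. Each runs 5′ to 3′ along the strand of its gene, and capitals mark matches on either strand, so that CCAAT also appears as ATTGG and TTTGAA as TTCAAA; Cdk1 and Mki67 hold E2F matches as well.
Cdc20: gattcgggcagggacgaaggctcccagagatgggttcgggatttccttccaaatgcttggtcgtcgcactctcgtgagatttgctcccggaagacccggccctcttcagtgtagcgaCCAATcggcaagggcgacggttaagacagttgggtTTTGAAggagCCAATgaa
Kif11: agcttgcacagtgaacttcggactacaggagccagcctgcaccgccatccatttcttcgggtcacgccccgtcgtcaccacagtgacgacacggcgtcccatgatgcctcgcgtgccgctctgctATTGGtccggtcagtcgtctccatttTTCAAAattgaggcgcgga
Cdk1: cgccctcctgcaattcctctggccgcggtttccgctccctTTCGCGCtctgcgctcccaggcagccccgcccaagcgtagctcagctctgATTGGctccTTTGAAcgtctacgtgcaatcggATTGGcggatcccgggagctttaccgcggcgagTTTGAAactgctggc
Top2a: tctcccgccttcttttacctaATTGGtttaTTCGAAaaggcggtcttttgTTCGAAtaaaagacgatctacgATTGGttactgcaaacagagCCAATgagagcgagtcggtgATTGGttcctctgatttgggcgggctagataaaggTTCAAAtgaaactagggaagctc
Mki67: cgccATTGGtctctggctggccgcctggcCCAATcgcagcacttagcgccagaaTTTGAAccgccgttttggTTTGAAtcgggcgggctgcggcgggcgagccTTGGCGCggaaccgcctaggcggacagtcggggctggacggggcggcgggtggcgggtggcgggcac

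For comparison, 4 replication members with E2F matches, also chosen after the matches were seen, are shown in the same way, with the reverse of the E2F letters (such as GCGCCAA or GCGGGAA) also in capitals. They are Mcm5 at chr8:75109339-75109508 on the plus strand, Mcm6 at chr1:128359706-128359875 on the minus strand, Rrm1 at chr7:102441525-102441694 on the plus strand and Cdc6 at chr11:98907981-98908150 on the plus strand. In Mcm5 and Mcm6, matches of different E2F letters overlap and form longer capital runs.
Mcm5: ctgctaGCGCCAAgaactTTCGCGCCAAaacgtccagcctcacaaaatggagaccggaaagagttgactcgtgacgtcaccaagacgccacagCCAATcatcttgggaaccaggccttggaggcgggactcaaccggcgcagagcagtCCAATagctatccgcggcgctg
Mcm6: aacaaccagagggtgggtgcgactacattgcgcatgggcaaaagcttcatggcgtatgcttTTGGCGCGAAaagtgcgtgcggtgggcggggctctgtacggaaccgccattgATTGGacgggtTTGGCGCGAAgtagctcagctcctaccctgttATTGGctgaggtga
Rrm1: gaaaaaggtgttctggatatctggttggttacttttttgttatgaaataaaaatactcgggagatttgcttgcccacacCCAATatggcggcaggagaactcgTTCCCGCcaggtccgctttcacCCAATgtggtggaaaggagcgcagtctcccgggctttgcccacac
Cdc6: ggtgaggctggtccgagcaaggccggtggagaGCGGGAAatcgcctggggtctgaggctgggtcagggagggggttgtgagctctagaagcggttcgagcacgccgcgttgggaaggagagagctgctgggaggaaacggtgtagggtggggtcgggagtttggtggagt

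**Figure D1:**
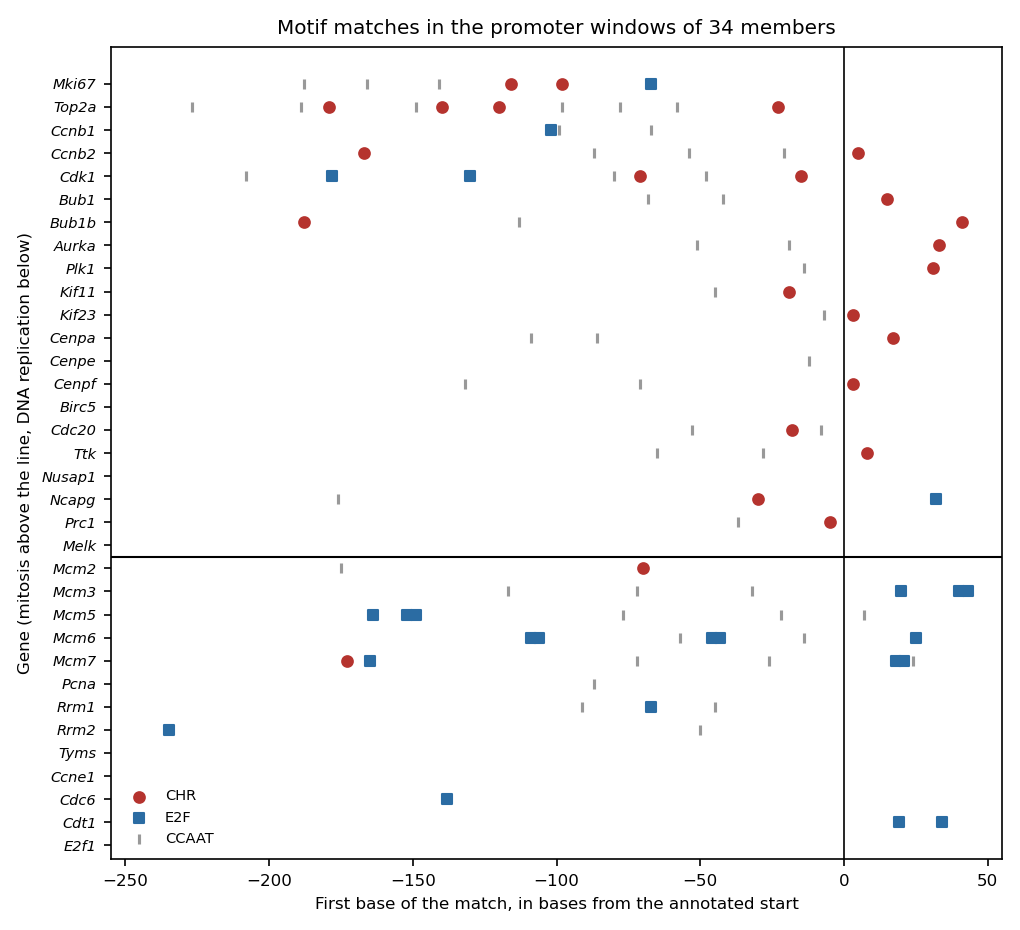
Positions of CHR, E2F and CCAAT matches in the promoter windows of 34 members, as the distance in bases of the first base of each match from the annotated start (x axis), 1 row per gene, with mitosis genes above the line and replication genes below. CHR matches sit in 16 of 21 mitosis rows and E2F matches in 8 of 13 replication rows.

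Levels set between genes are given per length, as FPKM averaged over the libraries of a group. In MEF the median mitosis member stood at 10.2 FPKM and the median replication member at 16.1. In 48h_Foxa1, 48h_Foxa2 and 48h_Foxa3 the order was the opposite, with 28.5, 29.3 and 29.3 FPKM for mitosis against 20.1, 19.8 and 20.1 for replication. In the iHep groups replication was again the higher list, at 18.6, 19.2 and 15.1 FPKM against 16.6, 12.9 and 13.7 with Foxa1, Foxa2 and Foxa3. Hep stood far below on both lists, at 0.190 FPKM for mitosis and 1.70 for replication. Pcna had the highest FPKM among replication members in every group except 48h_Foxa3del2, where Rrm2 led, and the initiation factor Cdc6 had the lowest in every group. Since these are bulk libraries, fewer cycling cells and less transcript per cycling cell cannot be told apart.

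**Figure D2:**
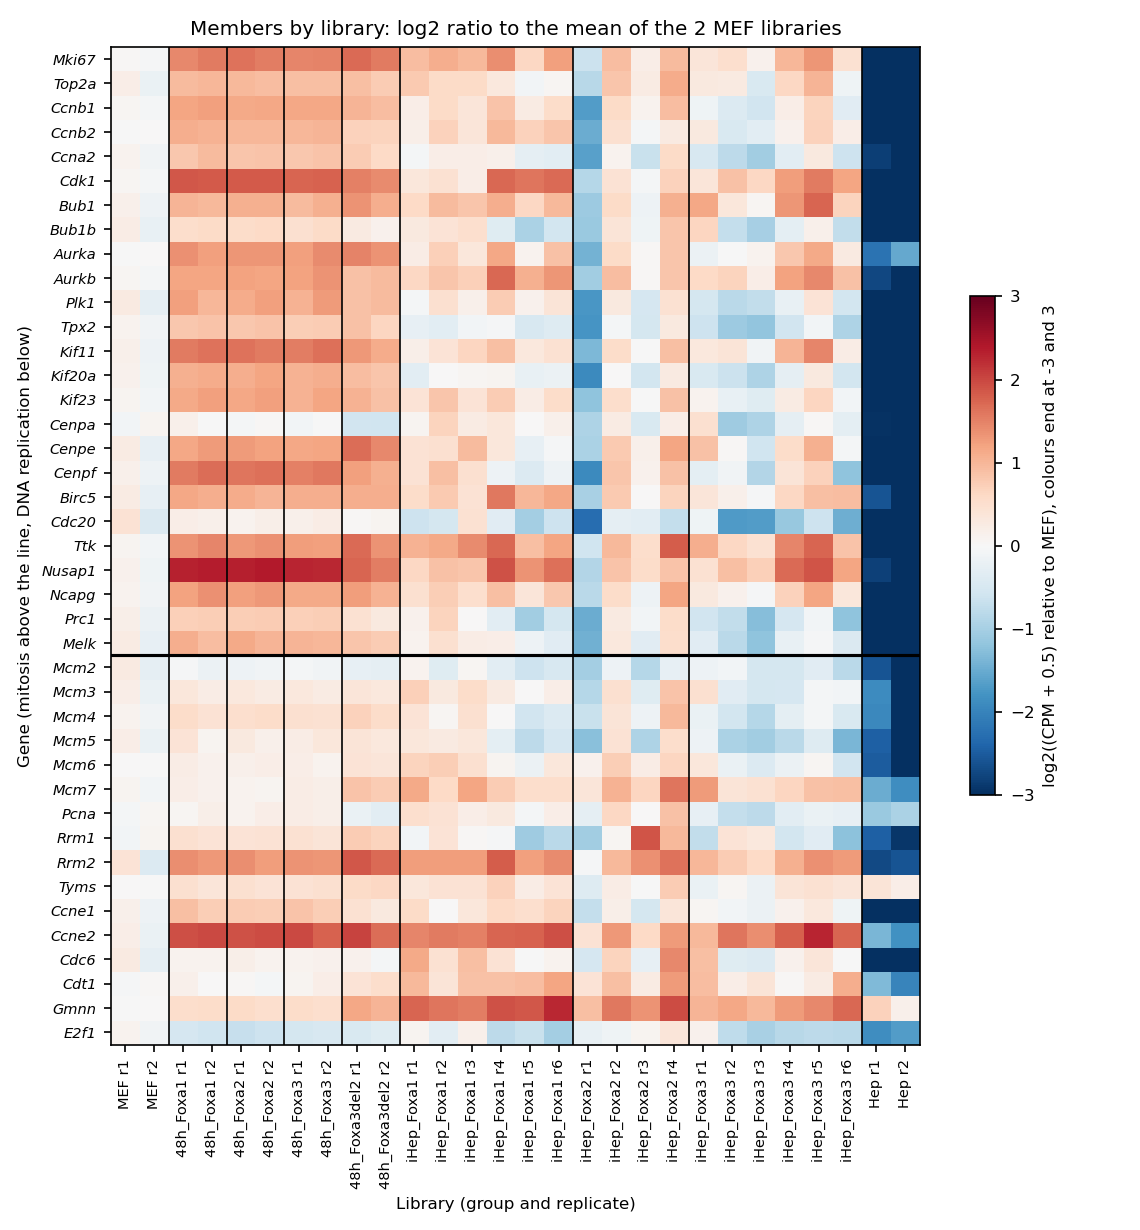
Level of each member (rows, mitosis above the line) in each of the 28 libraries (columns), as the log2 ratio of CPM + 0.5 to the mean of the 2 MEF libraries, with colours ending at -3 and 3. Most mitosis rows are red across the 48 h libraries. Cenpa is below MEF in 48h_Foxa3del2, at 38.05 and 37.02 CPM against 53.82 and 59.57. The mitosis rows are mixed in the iHep libraries, where iHep_Foxa2 replicate 1 is blue, and at or near the end of the blue scale in Hep.

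The balance of the lists was followed as the mean log2 CPM over mitosis members less that over replication members in each library, set to 0 at the MEF mean, a difference in which library scaling cancels. It stood at 0.73 ± 0.07 (SD, n = 2) in 48h_Foxa1, 0.75 ± 0.02 in 48h_Foxa2 and 0.68 ± 0.06 in 48h_Foxa3, and at 0.41 ± 0.03 in 48h_Foxa3del2. In the iHep groups it was back near or below the MEF value, at -0.05 ± 0.22 (n = 6) with Foxa1, -0.41 ± 0.41 (n = 4) with Foxa2 and -0.02 ± 0.32 (n = 6) with Foxa3. The 6 libraries with full-length factors at 48 h, the lowest at 0.64, lay above every iHep library, of which the highest was 0.45 in iHep_Foxa3 replicate 5. The 48h_Foxa3del2 libraries, at 0.43 and 0.39, lay just below that one. All 6 full-length libraries are of the high Rn7sk set and the MEF libraries of the low set, so stage and set cannot be told apart between them. The iHep_Foxa1 and iHep_Foxa3 groups hold libraries of both sets. In Hep the balance was -2.77 ± 0.61 (n = 2), but -0.87 on log2(FPKM + 1) and -1.77 over the 23 members with 10 counts in every library, so its size depends on the scale and on members with few reads. No p is given for this score, since the members were proposed with results of these data known.

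**Figure D3:**
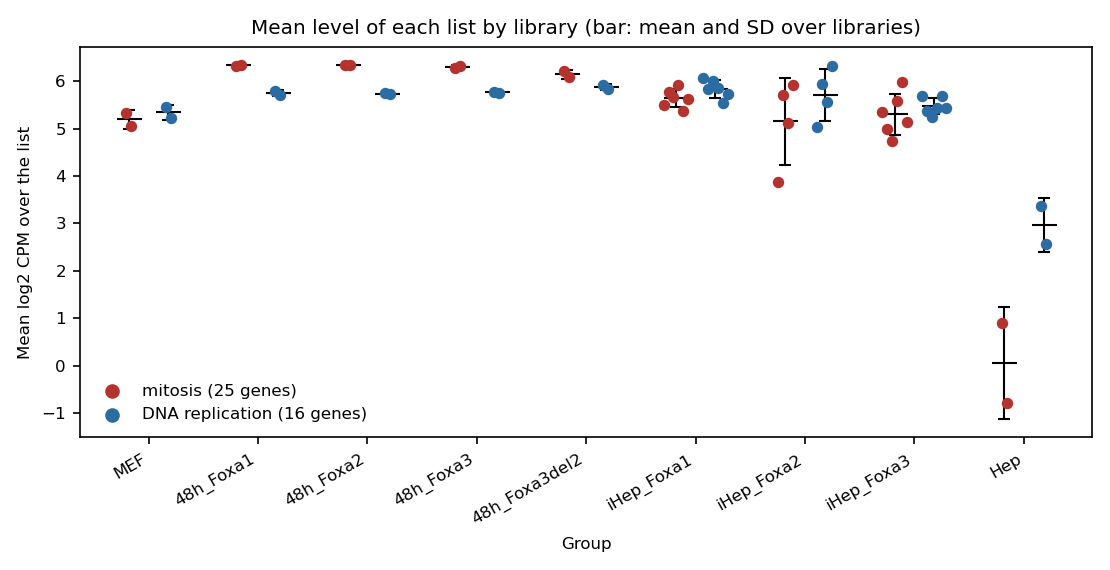
Mean log2 CPM over the 25 mitosis genes (red) and the 16 replication genes (blue) in each library, by group; bars give the mean and SD over the libraries of a group. Mitosis lies above replication in all 48 h groups, and iHep_Foxa2 replicate 1 has the lowest mitosis mean of the iHep libraries, at 3.88.

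The first comparison asks how the members stood at 48 h against the fibroblasts that the cells came from. With each factor 4 members rose: Mki67 and Nusap1 of the mitosis list and Ccne2 and Rrm2 of the replication list, and none fell. Among all 16499 genes tested, 5.25%, 5.48% and 5.21% were called with Foxa1, Foxa2 and Foxa3, with 2.13%, 2.2% and 2.22% higher and 3.12%, 3.28% and 2.98% lower. The median log2 fold change of mitosis members was 1.12, 1.15 and 1.13, that of replication members 0.26, 0.24 and 0.27, and that of all genes 0.04, 0.06 and 0.06. With a term for the Rn7sk set, which here coincides with the groups, the mitosis medians were 1.08, 1.10 and 1.02 and the replication medians 0.71, 0.66 and 0.69, so the gap between the lists was smaller. The 3 comparisons share the MEF libraries and are not independent of each other.

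Ccne2, cyclin E2, stood at 9.05 and 6.71 CPM in MEF and between 27.8 and 32.3 in the 6 full-length 48 h libraries, with no overlap. Its log2 fold change was 2.02 ± 0.35 (SE), 1.99 ± 0.35 and 1.93 ± 0.34 with Foxa1, Foxa2 and Foxa3 (adjusted p = 0.0044, 0.0044 and 0.0055, edgeR's quasi-likelihood test with Benjamini-Hochberg adjustment, as throughout). Cyclin E1 (Ccne1), its paralog, had a log2 fold change of 0.83 with Foxa1, which did not pass (adjusted p = 0.11). Rrm2, the small subunit of ribonucleotide reductase, stood at 92.1 and 51.6 CPM in MEF and between 166 and 183 in those 48 h libraries, a log2 fold change of 1.30 ± 0.36 with Foxa1 (adjusted p = 0.040). The large subunit Rrm1 had a log2 fold change of 0.44 ± 0.61 there and did not pass (adjusted p = 0.71). The subunits of the enzyme stood on different sides of the threshold, and the difference between them was not tested.

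Mki67, a protein of the mitotic chromosome surface used as a mark of cycling cells, stood at 111 and 107 CPM in MEF and between 298 and 340 in the 6 libraries, a log2 fold change of 1.51 ± 0.42 with Foxa1 (adjusted p = 0.040). Nusap1, a spindle protein that bundles microtubules, stood at 11.7 and 9.75 CPM in MEF and between 53.1 and 57.4 at 48 h, a log2 fold change of 2.37 ± 0.57 with Foxa1 (adjusted p = 0.021). Both were higher in 6 of 6 libraries than in either MEF library. Cdk1, the kinase that starts mitosis, stood at 29.6 and 26.9 CPM in MEF and between 96.3 and 104 at 48 h, and its log2 fold change of 1.87 ± 0.55 with Foxa1 lay just outside the threshold (adjusted p = 0.051). Kif11, the kinesin that pushes spindle poles apart, had 1.60 ± 0.52 (adjusted p = 0.071). At the other end stood Cenpa, the histone of centromeres, with 0.07, and Cdc20, the activator of the anaphase ubiquitin ligase, with 0.11, whose MEF libraries lay apart at 106 and 58.6 CPM. Of the helicase subunits, Mcm2 to Mcm7 had log2 fold changes between -0.13 and 0.49 with Foxa1 and none passed. E2f1 was at 48.4 and 42.2 CPM in MEF and between 27.7 and 32.1 at 48 h, with no overlap, and did not pass (log2 fold change -0.57 with Foxa1, adjusted p = 0.34).

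These 48 h calls rest on few libraries. All 6 libraries are of the high Rn7sk set and both MEF libraries of the low set; with a term for the set, Ccne2 kept its call with each factor (log2 fold change 1.52 with Foxa1, adjusted p up to 0.030 over the 3 factors), while Mki67, Nusap1 and Rrm2 lost theirs (adjusted p between 0.11 and 0.14 over the 3 factors), and 1 member remained called, where 3.19%, 3.92% and 3.66% of all genes were. Without any single library of a comparison Mki67, Nusap1 and Rrm2 were not called (adjusted p between 0.066 and 0.31), and Ccne2 was not called without MEF replicate 2 (0.070, 0.070 and 0.080) or without 48h_Foxa1 replicate 2, 48h_Foxa2 replicate 2 or 48h_Foxa3 replicate 1. The leukocyte markers, higher in MEF than at 48 h as given above, fell in 6 of the 14 tested with each factor, and their part in the members' values was not tested.

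Other genes of the same processes were read beside the members. Of 48 further mitosis genes 6, 6 and 5 rose with Foxa1, Foxa2 and Foxa3 and none fell, with medians of 1.15, 1.13 and 1.10 (log2). They included the shugoshin Sgo2a, a protector of centromeric cohesion, at 49.8 CPM against 11.9 in MEF with Foxa1, and the centromere protein Cenpi at 21.7 against 5.28. Of 44 further replication genes 5, 5 and 4 rose and none fell, with medians of 0.66, 0.62 and 0.60. Of 28 regulators of G1 only 2 rose with Foxa1, namely Lin54 and Lin9, both DNA-bound or core parts of the MuvB complex that acts at CHR sites, and none with Foxa2 or Foxa3, where 11 and 14 had an unadjusted p under 0.05.

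The 3 factors could not be told apart at 48 h in these genes. In each of the 3 comparisons among 48h_Foxa1, 48h_Foxa2 and 48h_Foxa3, 0 members were called by edgeR, 0 had an unadjusted p under 0.05, and 0 were called by the DESeq2 Wald test or limma; 0.00606%, 0.0121% and 0.0121% of all genes were called. The log2 fold changes of members between factors ran from -0.15 to 0.18.

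The mutant can be compared with MEF within the low Rn7sk set, to which all 4 libraries belong. Against MEF 5 members rose and none fell, while 15.8% of all genes were called: Ccne2, Rrm2 and Gmnn of the replication list and Mki67 and Nusap1 of the mitosis list. The median log2 fold change was 0.97 over mitosis members and 0.43 over replication members, against 0.01 over all genes. Ccne2 stood at 33.1 and 26.1 CPM, a log2 fold change of 1.91 ± 0.34 (adjusted p = 0.0011), and Rrm2 at 253 and 225, one of 1.74 ± 0.36 (adjusted p = 0.0032). Gmnn stood at 24.8 and 22.6 CPM against 10.7 and 11 in MEF, a log2 fold change of 1.13 ± 0.29 (adjusted p = 0.013). Mki67 stood at 356 and 323 CPM (1.64 ± 0.42, adjusted p = 0.012), and Nusap1 at 37.0 and 32.1 (1.69 ± 0.56, adjusted p = 0.042). Ccne2 alone of the 5 kept its call without each of the 4 libraries in turn; Gmnn, Mki67 and Nusap1 lost it without any 1 of them (adjusted p from 0.051 to 0.22) and Rrm2 without MEF replicate 2 (0.079). In the libraries of the low set alone 4 members were called, where 23% of all genes were, and Nusap1 was not (adjusted p = 0.062).

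Against full-length Foxa3 at 48 h, 0 members of the mutant group were called by edgeR, 0 had an unadjusted p under 0.05, and 0 were called by the DESeq2 Wald test or limma, while 2.98% of all genes were called. Nusap1 had the lowest log2 fold change in this comparison, at -0.63 (37.0 and 32.1 against 53.7 and 53.1 CPM), and Mcm7 had the highest, at 0.61 (129 and 121 against 83.0 and 80.6 CPM). The groups lie in different Rn7sk sets. The gene of Hnf4alpha (Hnf4a) stood at 728 to 737 CPM with the mutant and at 75.5 to 87.1 with full-length Foxa3. These values are per gene and do not separate the introduced transcript from the cells' own. The factor, the level of Hnf4a and the set therefore cannot be told apart here. When only these 4 libraries were fitted, 27 members were called, 11 higher and 16 lower, but so were 65.3% of all genes in that fit, so the members' share lies at the background.

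**Figure D4:**
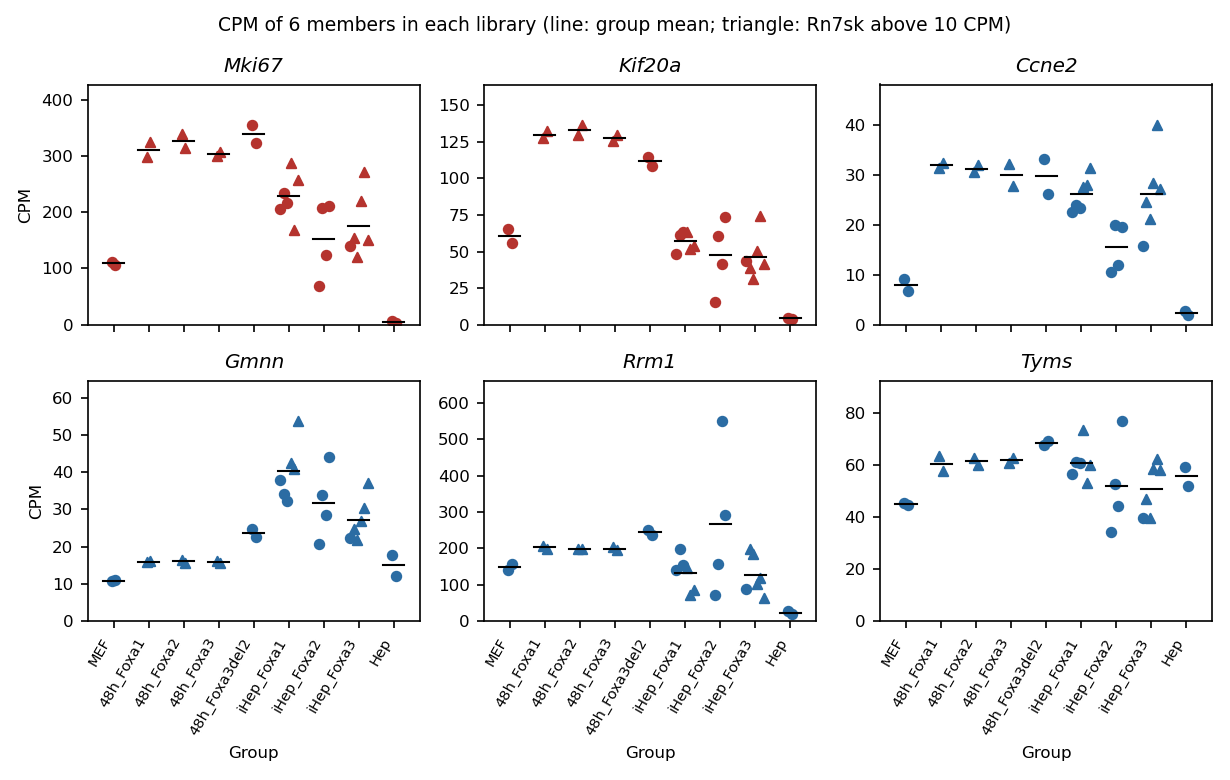
CPM of 6 members in each library, by group, with a line at the group mean and triangles for libraries with Rn7sk above 10 CPM; the axes start at 0. Mki67 and Kif20a (red, mitosis) are highest at 48 h, Ccne2 stays above MEF in all infected groups, Gmnn is highest in iHep_Foxa1, Rrm1 reaches 551 CPM in iHep_Foxa2 replicate 3, and Tyms in Hep lies within the range of the other groups.

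The second comparison asks what changed between 48 h and the maintained iHep cells. Mitosis members fell with all 3 factors: 6 of 25 with Foxa1, 13 with Foxa2 and 11 with Foxa3, and none rose. In all, 8, 18 and 14 members were called, where 42.0%, 40.1% and 40.6% of all genes were called, so the counts lie near or below the background. The called mitosis members all moved down, while of all genes 20.7%, 19.7% and 21.0% were called lower and 21.2%, 20.4% and 19.6% higher. The median log2 fold change of mitosis members was -0.68, -0.97 and -0.90, that of replication members 0.06, 0.06 and -0.29, and that of all genes 0.08, 0.02 and 0.05. Of the 25 mitosis members 24, 25 and 25 had a log2 fold change below 0, the exception being Cenpa with Foxa1 at 0.20.

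Kif20a, a kinesin of the central spindle in late mitosis, fell with every factor, from 127 and 132 CPM at 48 h to between 48.1 and 63.6 in iHep_Foxa1, from 130 and 137 to between 15.6 and 73.5 in iHep_Foxa2 and from 126 and 130 to between 31.4 and 74.3 in iHep_Foxa3, with no overlap. Its log2 fold change was -1.19 ± 0.32, -1.48 ± 0.35 and -1.45 ± 0.32 (adjusted p = 0.0050, 0.0021 and 0.00088). It kept its call without each library in turn with all 3 factors, and lost it in 1 other alternative, the 2 groups fitted alone with Foxa2 (adjusted p = 0.059). Tpx2, which brings Aurora A kinase to the spindle, stood at 148 and 152, 148 and 153, and 142 and 145 CPM at 48 h and at 60.5 to 82.1, 24.6 to 104 and 37.2 to 80.3 CPM in the iHep groups. It fell by 1.08, 1.17 and 1.46 on the log2 scale (adjusted p = 0.0075, 0.0085 and 0.00056), and with Foxa1 it lost its call without either 48 h library (adjusted p up to 0.062). Cyclin A2 (Ccna2), Cenpf, a kinetochore protein, and Nusap1 were the other mitosis members that fell with all 3 factors. Their log2 fold changes ran from -1.28 to -0.90, from -1.64 to -1.33 and from -1.90 to -1.05, and each of these calls was lost without 1 or more single libraries, except Ccna2 with Foxa3 and Nusap1 with Foxa2. That call of Nusap1 was lost with a term for the Rn7sk set (adjusted p = 0.12, edgeR).

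Further mitosis members fell with some factors. Plk1, a kinase needed from mitotic entry to division, Melk, a kinase high in cycling cells, Kif23, a partner of the central spindle, and Ccnb2 fell with Foxa2 and Foxa3. Plk1 went from 54.4 and 63.9 to 20.4 ± 7.62 CPM with Foxa3 (log2 fold change -1.54 ± 0.40, adjusted p = 0.0040) and from 56.5 and 61.4 to 23.4 ± 13.1 CPM with Foxa2 (-1.33 ± 0.44, adjusted p = 0.020). Cdk1, Aurka and Mki67 passed with Foxa2, Ccnb1 and Prc1, a microtubule bundler of the midzone, with Foxa3, and Kif11 with Foxa1 and Foxa2. With Foxa2 the Rn7sk sets coincide with the 2 stages. Under a set term the Foxa2 calls of Cdk1 (adjusted p = 0.31, edgeR), Aurka, Mki67, Kif11, Plk1, Kif23 and Ccnb2 were lost, and that of Melk was kept. The Foxa1 call of Kif11 was lost there too. Aurka, Mki67, Ccnb1 and Kif11 also lost their calls without 1 or more single libraries. Prc1 stood at 131 and 134 CPM and then at 50.0 ± 15.7 (-1.41 ± 0.38, adjusted p = 0.0048). Prc1 kept its call without each library in turn, while Plk1 lost its call without 48h_Foxa3 replicate 2 with Foxa3 (0.054) and without either 48 h library with Foxa2 (up to 0.083). Whether the changes themselves differed between factors was tested through their difference: 0 of the 41 members, and 0 of all 16499 genes, were called in any of the 3 tests, with 0, 1 and 1 members at an unadjusted p under 0.05, in both cases Pcna.

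Replication members moved in both directions. Gmnn rose with all 3 factors, from between 15.6 and 16.4 CPM at 48 h to between 32.4 and 53.8 with Foxa1, 20.8 and 43.9 with Foxa2 and 21.8 and 37.1 with Foxa3, with no overlap in any of them. Its log2 fold change was 1.34 ± 0.26, 0.99 ± 0.26 and 0.78 ± 0.25 (adjusted p = 0.00028, 0.0052 and 0.016); it kept its call in all 17 alternatives with Foxa1, and lost it without 48h_Foxa2 replicate 2 (0.11) and without either 48h_Foxa3 library (up to 0.12). Cdt1, the loading factor that geminin binds, rose with Foxa1 (0.83 ± 0.30, adjusted p = 0.030) and Foxa2 (0.79 ± 0.31, adjusted p = 0.047), and Mcm7 with Foxa2 (0.90 ± 0.29, adjusted p = 0.017). Each of these calls was lost without either 48 h library of its factor. That of Cdt1 was lost in 4 of 17 alternatives with Foxa1 and in 11 of 14 with Foxa2. The latter include both uses of DESeq2, limma, the set term and the 2 groups alone. Mcm7 lost its call with the set term and in the 2 groups alone. Ccne1 fell with Foxa2, from 40.5 and 40.1 to 22.1 ± 7.96 CPM (-0.87 ± 0.26, adjusted p = 0.012), and with Foxa3, from 43.4 and 40.0 to 24.3 ± 3.24 CPM (-0.78 ± 0.24, adjusted p = 0.014). The Foxa2 call of Ccne1 was lost without 48h_Foxa2 replicate 1 (0.074) and its Foxa3 call without either 48 h library (up to 0.12). Ccne2 passed with Foxa2 (-1.01 ± 0.28, adjusted p = 0.0068), a call kept without each library in turn but lost with a set term (0.22). Pcna passed with Foxa3 (-0.60 ± 0.22, adjusted p = 0.030), a call lost without either 48 h library or iHep_Foxa3 replicate 2 or 3 (adjusted p up to 0.16).

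The direction of the mitosis list held within a Rn7sk set where a set holds both stages. In the high set alone, 12 mitosis members were lower and none higher between iHep_Foxa1 replicates 4 to 6 and 48h_Foxa1, with a median of -0.70, and 18 were lower and none higher between iHep_Foxa3 replicates 2 to 6 and 48h_Foxa3, with a median of -0.95. Of replication members 3 and 2 were higher and 3 and 8 lower, with medians of -0.13 and -0.38, below those of the fit to all libraries. Of all genes 57.1% and 54.4% were called in these fits, 29.8% and 28.4% lower. The iHep_Foxa2 libraries are all of the low set, so the set and the stage cannot be told apart there; with a set term 6 mitosis members were lower and 1 replication member higher, and the median of the replication list moved from 0.06 to -0.22. With each factor, fewer members were called without either 48 h library. Such a fit leaves a single 48 h library, and the share of all genes called in it is not given here.

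**Figure D5:**
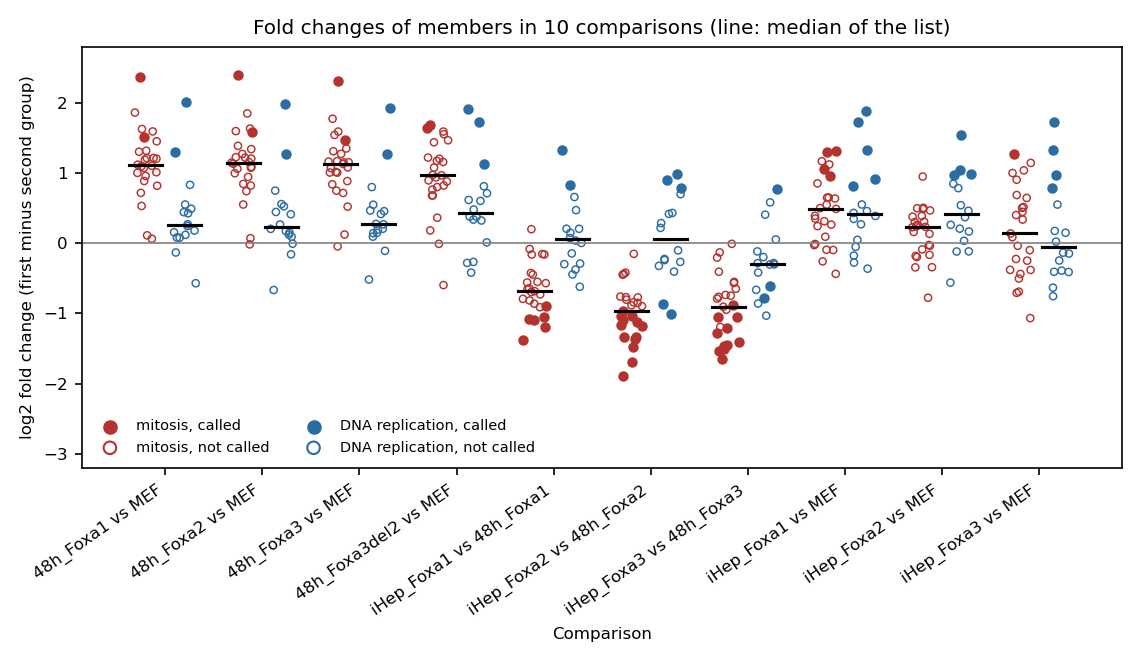
Log2 fold change (y axis, first group minus second) of each member in 10 comparisons (x axis), mitosis in red and replication in blue; filled points were called at an adjusted p under 0.05 and lines are the medians of the lists. Mitosis medians lie above replication medians at 48 h against MEF and below them from 48 h to iHep.

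Of 28 G1 regulators 3, 3 and 5 rose and 6, 8 and 5 fell over the same interval, a share at or below that of all genes called. Myc, a growth regulator, rose with every factor, from 13.0 to 166 CPM with Foxa1, 14.5 to 82.2 with Foxa2 and 13.9 to 187 with Foxa3, and E2f2, an activating E2F, from 3.04 to 26.2, 2.99 to 14.5 and 3.23 to 16.7 CPM. Cdk4, the kinase of D-type cyclins, fell by 0.98, 0.97 and 1.23 on the log2 scale. Of 7 inhibitors of cyclin-dependent kinases none rose and 2, 2 and 3 fell, Cdkn2c (p18) with each factor, from 41.7 to 13.1, 40.2 to 12.9 and 39.9 to 7.58 CPM. Of the 48 further mitosis genes 14, 22 and 21 fell and 0, 1 and 0 rose, the riser being Pttg1, the separase inhibitor securin, and of the 44 further replication genes 3, 5 and 4 fell and 2, 2 and 0 rose.

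The third comparison sets iHep cells against the starting fibroblasts. Here 9 members rose with Foxa1, 4 with Foxa2 and 5 with Foxa3, and none fell, while 39.9%, 30.7% and 46.6% of all genes were called. Of all genes 20%, 15.3% and 22.9% were higher and 19.9%, 15.5% and 23.7% lower, so the members' shares lie near or below the share of genes called higher. Of the replication list 5, 4 and 4 of 16 rose, and of the mitosis list 4, 0 and 1 of 25. The medians were 0.49, 0.24 and 0.14 for mitosis and 0.41, 0.42 and -0.05 for replication, against 0.08, 0.06 and 0.05 for all genes. With Foxa2 0 mitosis members had an unadjusted p under 0.05, and 0 were called by DESeq2 or limma. These comparisons share the MEF libraries with those at 48 h.

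Gmnn, Ccne2, Rrm2 and Mcm7 were the members that rose with all 3 factors. Gmnn had log2 fold changes of 1.89 ± 0.27, 1.55 ± 0.27 and 1.33 ± 0.26 (adjusted p = 9.9e-06, 0.00017 and 0.00026), with every one of the 16 iHep libraries, the lowest at 20.8 CPM, above the MEF values of 10.7 and 11. Ccne2 had 1.73 ± 0.30, 0.98 ± 0.30 and 1.73 ± 0.30 (adjusted p = 0.00011, 0.017 and 8.8e-05), its iHep libraries lying between 10.6 and 40.0 CPM, all above MEF. Rrm2 stood at 162 to 244, 66.8 to 214 and 105 to 178 CPM and overlapped the MEF range only in iHep_Foxa2 replicate 1; its log2 fold change was 1.34, 1.05 and 0.98 (adjusted p = 0.0019, 0.016 and 0.012). Mcm7, the one helicase subunit that passed, stood at 102 to 162, 91.8 to 216 and 93.3 to 173 CPM against 74.5 and 67.1 in MEF (log2 fold change 0.82, 0.99 and 0.79, adjusted p = 0.021, 0.012 and 0.021). Cdt1 rose with Foxa1 (0.91 ± 0.30, adjusted p = 0.020).

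The mitosis members that rose with Foxa1 were Mki67 (1.07 ± 0.36), Ttk (1.30 ± 0.48), Nusap1 (1.32 ± 0.48) and Birc5 (0.96 ± 0.37), with adjusted p between 0.022 and 0.045; with Foxa3 it was Nusap1 (1.27 ± 0.48, adjusted p = 0.034). Ttk is a kinase of the spindle checkpoint and Birc5, survivin, a subunit of the chromosomal passenger complex. None of these 5 calls held without MEF replicate 1 or without MEF replicate 2 (adjusted p up to 0.31), and Mcm7 lost its call in the same way with each factor (up to 0.15). Cdt1 lost its call too without either MEF library (up to 0.15), Rrm2 without MEF replicate 2 (0.089, 0.31 and 0.23 with Foxa1, Foxa2 and Foxa3) and, with Foxa2, without iHep_Foxa2 replicate 4, and Ccne2 with Foxa2 without either MEF library (up to 0.25). Gmnn with each factor, and Ccne2 with Foxa1 and Foxa3, kept their calls without each library in turn. Calls were thus lost without MEF replicate 1 as well as without MEF replicate 2, and each such fit leaves a single MEF library. Replicate 2 held more leukocyte transcripts, and their part was not tested. Within the low set alone, iHep_Foxa1 replicates 1 to 3 gave 4 called members, all of the replication list, where 31.4% of all genes were called, and iHep_Foxa3 replicate 1, a single library, gave 0, where 24.3% were.

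The iHep libraries of 1 group differed among themselves. In iHep_Foxa2, replicate 1 had the lowest level of the group in all 25 mitosis members, with Mki67 at 69.1 CPM against 125, 208 and 211 in the other replicates and Kif20a at 15.6 against 41.3 to 73.5. Relative to MEF, its mitosis mean was -1.31 and its replication mean -0.30 on the log2 scale, while in replicate 4 they were 0.73 and 0.97. Rrm1 had its widest spread in this group, at 71.5, 156, 551 and 292 CPM in replicates 1 to 4. In iHep_Foxa3 the mitosis mean ran from -0.45 in replicate 3 to 0.79 in replicate 5 relative to MEF, while the replication mean ran only from -0.11 to 0.35.

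In iHep_Foxa1 part of the spread followed the Rn7sk sets, 3 libraries against 3. Of the members, 4 were higher and 4 lower in the high set, where 26% of 13692 genes were called, 13.8% higher and 12.2% lower. Of the mitosis list 4 were higher and 2 lower, with a median log2 difference of 0.20. Of the replication list 0 were higher and 2 lower, with a median of -0.27. The balance of the lists relative to MEF was -0.42, 0.07 and -0.18 in the low set and 0.20, -0.02 and 0.05 in the high set. Cdk1 stood at 36.1, 38.9 and 32.7 CPM in the low set and at 94.8, 86.5 and 92.5 in the high set, a log2 difference of 1.45 (adjusted p = 0.0020), and Nusap1, Aurkb and Birc5 were also higher. Bub1b, a spindle checkpoint kinase, stood at 68.2, 74.0 and 78.9 in the low and at 42.9, 28.1 and 37.2 in the high set, a log2 difference of -0.92 (adjusted p = 0.015), and Cenpf, Mcm5 and E2f1 were lower as well. These libraries carry the same labels, and what separates the sets was not tested.

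Between the factors, few members differed in iHep cells. Ccne2 was higher in iHep_Foxa1 than in iHep_Foxa2 (log2 fold change 0.75 ± 0.22, adjusted p = 0.034), the only member of 41 where 11% of all genes were called, 7.1% higher and 3.87% lower. Pcna (0.68 ± 0.16, adjusted p = 0.013) and Gmnn (0.56 ± 0.17, adjusted p = 0.040) were higher in iHep_Foxa1 than in iHep_Foxa3, where 8.32% of all genes were called, 4.41% higher and 3.92% lower. Between iHep_Foxa2 and iHep_Foxa3, where 31.1% of all genes were called, Pcna (0.78 ± 0.17, adjusted p = 0.0032), E2f1 (0.67 ± 0.22, adjusted p = 0.027) and Rrm1 (1.09 ± 0.39, adjusted p = 0.037) were higher with Foxa2 and Ccne2 was lower (-0.75 ± 0.22, adjusted p = 0.014). No mitosis member was called in these 3 comparisons, where 5, 4 and 3 had an unadjusted p under 0.05; DESeq2's Wald test called 1 in the first and in the last, and limma 1 in the last. The iHep_Foxa3 libraries held 81.4 to 123 CPM of Pcna, those of iHep_Foxa1 135 to 200 and those of iHep_Foxa2 117 to 258, and its calls held without each library in turn. The call of Rrm1 was lost without any of 6 single libraries, most of all iHep_Foxa2 replicate 3 (adjusted p = 0.36), those of E2f1 and of Gmnn without any of 6 and of 8 single libraries (up to 0.10 and 0.086), and those of Ccne2 without any of 6 single libraries against iHep_Foxa1 (up to 0.11) and without iHep_Foxa2 replicate 1 or 3 against iHep_Foxa3 (up to 0.053). With a term for the Rn7sk set 0 members were called between iHep_Foxa2 and iHep_Foxa3 and 0 between iHep_Foxa1 and iHep_Foxa2.

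The last comparison sets the members against adult hepatocytes. In Hep, 25 of 25 mitosis members and 14 of 16 replication members were lower than in MEF, where 56.9% of all genes were called and 32.6% were lower. The median log2 fold change was -4.95 for mitosis, -2.50 for replication and -0.29 for all genes. Mki67 stood at 6.49 and 2.99 CPM in Hep (log2 fold change -4.52 ± 0.49, adjusted p = 8.6e-08), and Top2a, the topoisomerase that untangles chromosomes, at 4.53 and 1.37 against 192 and 147 in MEF (-5.84 ± 0.62, adjusted p = 6.6e-08). Ncapg, Bub1 and Ttk had only 2 or 3 reads over both Hep libraries, so their levels alone are given, 0.122, 0.184 and 0.184 CPM.

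The replication list kept more of its level in Hep. Pcna stood at 64.6 and 72.7 CPM, the smallest fall among those called (log2 fold change -1.04 ± 0.28, adjusted p = 0.0029), and Mcm7 at 25.1 and 19.1 (-1.68 ± 0.33, adjusted p = 0.00018). Ccne1, by contrast, was at 0.857 and 0.249 CPM (-5.42 ± 0.43, adjusted p = 8.5e-10), as low as mitosis members, while Ccne2 was at 2.69 and 1.87. Tyms stood at 59.4 and 51.9 CPM in Hep and 45.5 and 44.4 in MEF (0.31, adjusted p = 0.34), and Gmnn at 17.8 and 12.2 against 10.7 and 11 (0.46, adjusted p = 0.19), and neither passed. On limma's log2(FPKM + 1) scale both had the opposite sign, and neither passed there. Tyms, Ccnb1 and Pcna have processed copies in the mouse genome, and how reads were split among them is not given in the sources used here. In each iHep group 25 of 25 mitosis members and 15 of 16 replication members were higher than in Hep, all but Tyms, where 60.1%, 60.6% and 61.9% of all genes were called and 35.3%, 35.2% and 35.3% were higher. Mki67 was higher by 5.59 ± 0.49, 5.01 ± 0.48 and 5.21 ± 0.48 on the log2 scale with Foxa1, Foxa2 and Foxa3 (adjusted p = 2.1e-09, 1.1e-08 and 4.4e-09). The counts against Hep were 38 to 39 for MEF and 38 to 40 for the iHep groups without each library in turn. Hep also differed in its leukocyte and endothelial transcripts, the latter at 145 to 149 CPM over 10 markers against 9.86 to 61.4 in all other libraries, and their part was not tested.

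Among the further genes, 43 of 48 mitosis genes and 29 of 44 replication genes were lower in Hep than in MEF, and 2 and 4 were higher. Those higher included Pttg1 at 35.5 against 11.4 CPM and the kinetochore protein Spc24 at 61.7 against 27.4. Foxm1, an activator of mitotic genes, was at 0.246 CPM against 28.1 in MEF. All 7 inhibitors of cyclin-dependent kinases were lower in Hep, Cdkn1a (p21) at 5.33 against 350 CPM and Cdkn2a at 0.0612 against 74.8.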

How the data were processed

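Messenger RNA was sequenced in 28 libraries of 9 groups, with a stranded kit per the labels. The authors deposited, for each library, expected counts, FPKM and a fraction per RefSeq transcript (30710 transcripts); the submitters' processing notes name BWA 0.7.12 and mm9, and the quantifier is not given in the sources used here. Deposited expected counts were summed per gene symbol and rounded. The 339 transcripts without a symbol, 0.609% to 3.21% of reads, stayed as rows of their own among the 23712. They entered the fit, the tests and the shares of all genes where they passed the filter on low counts. The deposited FPKM served for levels between genes and for limma, and the deposited fraction was not used.

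One edgeR 4.0.16 quasi-likelihood fit (R 4.3.3; TMM, filterByExpr, 16499 genes, 19 residual degrees of freedom) over all 28 libraries gave 21 comparisons, with Benjamini-Hochberg adjustment over all genes tested and a threshold of 0.05. A log2 fold change is the first group minus the second, and errors are SE. Levels are means ± SD of CPM, and the list means used a prior count of 2. Alternatives were DESeq2 1.42.0 (size factors, Wald test), limma 3.58.1 on log2(FPKM + 1), no filter, the most abundant transcript, a replicate block, a term for the Rn7sk set, each set or pair of groups alone, and each library left out. The difference of changes between factors and the sets inside iHep_Foxa1 were added after the data were seen. The fit was tested on simulated data. Same-numbered libraries were checked for pairing: over 80 pairs their deviations correlated between -0.177 and 0.209, and 3 pairs exceeded 0.1.

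All members could be named; from the other lists, up to 4 called genes of smallest adjusted p and up to 4 of highest FPKM per comparison. The members and lists were chosen with earlier results of these data known. Depth per library, 14592820 to 51743266 assigned reads, limits the precision of genes with few reads in Hep. RefSeq promoters are on GRCm38.p6, so no position was joined to the mm9 data.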

Additional observations from a re-analysis of the deposited data

Results flagged for a closer look

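Within groups of 4 to 6 libraries, 132 sets of values (the members, the mean of each list and their balance, in each group) were examined for a library far from the rest by Dixon's test at 95%, and 4 stood out, where chance alone marks about 1 in 20. Cdc20, the activator of the anaphase ubiquitin ligase, stood at 109 CPM in iHep_Foxa1 replicate 3, with the nearest library at 62.1 CPM. Rrm2, the small subunit of ribonucleotide reductase, stood at 244 CPM in iHep_Foxa1 replicate 4, with the nearest at 185 CPM. Plk1, a mitotic kinase, stood at 35 CPM in iHep_Foxa3 replicate 5, the library with the highest mitosis mean of its group, with the nearest at 22.1 CPM. E2f1, a transcription factor of S phase genes, stood at 49.6 CPM in iHep_Foxa3 replicate 1, with the nearest at 26.5 CPM, and this was the one library of its group in the low Rn7sk set.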

How the results depend on the processing

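Limits come first from the small groups: MEF, Hep and each 48 h group have 2 libraries, so a call can rest on 1 of them, and the Rn7sk sets coincide with several groups. Counts of members called in comparisons with Hep, and between 48 h groups with full-length factors, stayed within 1.5 times of the main count under all alternatives run. Taken with values of the balance of the lists, which were not judged by that range, 287 values were kept and 106 moved. The cause was not tested. For single genes, 92 results, each a gene in 1 comparison, were run again under each alternative. Of these repeats 1112 kept their side of the threshold, 296 lost it and 4 changed sign. The repeats share libraries and are not independent of each other. The share of all genes called moved too, and it is not given here for fits with a library left out. For iHep against MEF it was 31.4% in the low set alone with Foxa1 and 30.7% in the 2 groups alone with Foxa2. With Foxa3 it was 38.4% with the set term, 44.9% in the 2 groups alone, 50.4% with DESeq2 and 49.9% with limma. For iHep against 48 h the 2 groups alone gave 27.9% with Foxa1 and 48.9% with Foxa2, and the set term 32.1% with Foxa2.

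Against MEF with Foxa1, Foxa2 and Foxa3 at 48 h, where 4 members were called, the set term gave 1 in each, the 2 groups alone 30 in each, and limma 17, 16 and 16. DESeq2's Wald test gave 10 and 8 with Foxa1 and Foxa2. Of all genes the set term called 3.19%, 3.92% and 3.66%, and the 2 groups alone 39.7%, 39.7% and 40.2%. Limma called 14.5%, 14.7% and 14.6% of all genes, and DESeq2 12.7% with both Foxa1 and Foxa2. Leaving out a library gave 0 to 1. For 48h_Foxa3del2 against MEF (5), the set term and DESeq2 gave 10, the 2 groups alone 32 and limma 16. Of all genes these called 29.3%, 23.4%, 50% and 24.7%. Leaving out any library gave fewer than 5 members. Against 48h_Foxa3 (0), the set term gave 3 and the 2 groups alone 27, where 23.1% and 65.3% of all genes were called.

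For iHep against MEF, the low set alone gave 4 with Foxa1 (9) and 0 with Foxa3 (5), the set term 3 with Foxa3, the 2 groups alone 1 with Foxa2 (4) and 8 with Foxa3, and DESeq2 8 and limma 9 with Foxa3; libraries left out gave 2 to 10, 1 to 6 and 2 to 8. For iHep against 48 h, the 2 groups alone gave 14 with Foxa1 (8) and 5 with Foxa2 (18), the set term 7 with Foxa2, and the high set alone 18 with Foxa1 and 28 with Foxa3 (14); libraries left out gave 2 to 9, 6 to 19 and 5 to 18.

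Between iHep_Foxa1 and iHep_Foxa2 (1), the set term, the 2 groups alone and the low set alone gave 0 (0.939%, 0.0214% and 0.0244% of all genes). The most abundant transcript and limma gave 2 (12.1% and 11.6%), DESeq2 3 (18.8%), and libraries left out 0 to 3. Between iHep_Foxa1 and iHep_Foxa3 (2), no filter and the most abundant transcript gave 1 (5.94% and 8.14% of all genes). The 2 groups alone gave 0 (0.605%) and the high set alone 7 (16.2%), with 1 to 2 for libraries left out. Between iHep_Foxa2 and iHep_Foxa3 (4), the set term gave 0 (4.85% of all genes) and the 2 groups alone 2 (29.9%), with 1 to 6 for libraries left out.

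With a replicate block, 7 members were called in 48h_Foxa1 against MEF (10.5% of all genes), 5 in iHep_Foxa1 against MEF (35.5%) and 10 in 48h_Foxa3del2 against MEF (21.3%). That block gave 0 between iHep_Foxa1 and iHep_Foxa2 (1.38%) and 2 between iHep_Foxa2 and iHep_Foxa3 (21.7%). The labels share only a number, and only 3 of 80 pairs correlated above 0.1. The balance of mitosis over replication on log2(FPKM + 1) was 0.70 in 48h_Foxa2, 0.38 in 48h_Foxa3del2 and -0.87 in Hep; over the 23 members with 10 counts in every library it was 0.68 in 48h_Foxa2, 0.61 in 48h_Foxa3, 0.28 in 48h_Foxa3del2 and -1.77 in Hep, and in 48h_Foxa2 libraries left out gave 0.73 to 0.77 and leaving out the 5 members of mixed role 0.78. Signs changed for Gmnn (-0.34) and Tyms (-0.47) in Hep against MEF under limma, and for E2f1 between iHep_Foxa2 and iHep_Foxa3 under the set term (-0.00941) and in the low set alone (-0.078).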

Other observations

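The further genes of each process carried the promoter motifs at rates like those of the members. A CHR match lay in 28 of 41 windows of further mitosis genes (68.3%) and in 8 of 36 windows of further replication genes (22.2%), against 19.4% of all windows. An E2F match lay in 10 of 41 (24.4%) and 19 of 36 (52.8%), and G1 regulators held CHR in 7 and E2F in 8 of 20 windows. Of the members, CHR without E2F was found in 13 of 21 mitosis windows and 1 of 13 replication windows. The windows of Birc5, Nusap1, Melk, Tyms, Ccne1 and E2f1 held no match of any of the 3 motifs, which says only that these letters are not in this window.

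Between the Foxa3 mutant and full-length Foxa3 at 48 h, where no member was called, some regulators of the cycle were. Myc, a growth regulator, stood at 56.1 CPM with the mutant and 13.9 with full-length Foxa3 (log2 fold change 2.01 ± 0.49, adjusted p = 0.026, edgeR). Cdkn2c, an inhibitor of Cdk4 and Cdk6, stood at 8.63 and 39.9 CPM (-2.21 ± 0.37, adjusted p = 0.0020, edgeR). Of the 28 G1 regulators 2 were higher and 0 lower, and of the 7 inhibitors 0 were higher and 2 lower. These libraries lie in different Rn7sk sets, so mutant and set cannot be told apart.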
